A study of Mus musculus with 14 samples.

Results

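Dendritic cells (DCs) of the popliteal lymph node that had not been labelled with biotin were compared with DCs of Cd40-null mice. The comparison uses 8 of the 14 RNA libraries of the study: the 6 libraries titled biotin negative and both libraries titled CD40 null, chosen by those titles alone. The study marked DCs whose CD40 had met CD40 ligand on T cells by LIPSTIC, a method in which a sortase enzyme on the ligand transfers a biotin-bearing peptide to a glycine tag on the receptor. Each library was made by Smart-seq2 from 150 sorted cells and read as 38-base paired ends.

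The biotin-negative DCs came from C57BL/6 mice that carry tagged Cd40, written G5-Cd40+/+ or Cd40G5/G5 in the labels. These mice first received OVA323-339-pulsed DCs of the same Cd40G5/G5 genotype under the skin of the footpad. After 18 hours they received CD4+ OT-II T cells of genotype CD40lgSrtA/Y CD4-Cre, which recognise that ovalbumin peptide and carry sortase on CD40 ligand through Cre expressed in T cells. The biotin substrate (300 nmol per footpad) followed at 46 hours after T cell transfer, and nodes were taken at 48 hours. The Cd40-/- C57BL/6 mice were handled alike but the DCs and the OT-II T cells they received were wild type. In both groups endogenous MHC-II high, CD11c+, CD11b+, XCR1- DCs were sorted, with a further gate on absence of biotin in the tagged mice only. Genotype of the host, genotype of the transferred DCs and T cells, and the biotin gate therefore differ together between the groups and cannot be told apart. No label says how many mice stand behind a library. The p-values therefore reflect variation among these libraries only, which may be technical. Ages were not given.

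CD40 is a receptor of the TNF receptor superfamily on DCs and B cells. It signals through TRAF adaptors to NF-kB and to PI3K, and it licenses DCs to raise costimulatory ligands when T cells present CD40 ligand. PI3K and Akt hold FoxO transcription factors in the cytoplasm, and glucocorticoids act through a nuclear receptor. Several genes are known targets of both FoxO factors and the glucocorticoid receptor, among them Tsc22d3 and Il7r.

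3 stretches upstream of RefSeq starts are shown, for genes known to be induced by glucocorticoids. They were chosen because these genes stood together among those called higher in biotin-negative DCs. They are read 5′ to 3′ from RefSeq (GRCm38.p6), from 250 bases before the most upstream start in that table, leaving out bases inside an exon of the gene in GENCODE vM21. In GENCODE vM21, Fkbp5 spans chr17:28399094-28517527 and Per1 begins at chr11:69095217, so the windows of these 2 genes lie inside the annotated genes. Capitals mark a match, on either strand, to the repeat unit of the glucocorticoid response element (AGAACA, reverse complement TGTTCT) or to the E-box CACGTG bound by clock factors.
Tsc22d3, chrX:140600660-140600772, minus strand: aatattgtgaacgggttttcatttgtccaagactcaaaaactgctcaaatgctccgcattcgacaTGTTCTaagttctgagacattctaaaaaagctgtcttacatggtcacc
Fkbp5, chr17:28486150-28486399, minus strand: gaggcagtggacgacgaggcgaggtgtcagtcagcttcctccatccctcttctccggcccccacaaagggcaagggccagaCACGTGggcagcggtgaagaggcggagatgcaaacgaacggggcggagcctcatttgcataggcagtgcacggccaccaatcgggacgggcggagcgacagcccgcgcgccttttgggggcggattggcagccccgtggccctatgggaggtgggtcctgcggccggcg
Per1, chr11:69098699-69098947, plus strand: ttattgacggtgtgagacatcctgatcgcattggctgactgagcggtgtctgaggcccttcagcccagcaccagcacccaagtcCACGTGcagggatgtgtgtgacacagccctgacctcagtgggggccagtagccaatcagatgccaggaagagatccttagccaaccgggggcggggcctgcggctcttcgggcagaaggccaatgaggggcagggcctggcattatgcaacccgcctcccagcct

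In the 250 bases upstream, AGAACA on either strand was present in 16.1% of 27025 RefSeq promoters and in 11.4% of the 10450 that belong to a tested gene. Of the 26 promoters matched to a gene called higher, 2 held it, those of Tsc22d3 and Sult1a1. The E-box was present in 6.04% of all promoters and in 8.07% of those of tested genes, and 2 of the 26 held it, those of Fkbp5 and Per1. The FoxO motif GTAAACA was present in 3.06% of all promoters, in 2.12% of those of tested genes and in 0 of the 26. For no motif was the share among the 26 higher than that among promoters of tested genes. The motifs do not overlap each other, and these are counts of letters, not of bound sites.

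The biotin-negative libraries held 16762804 to 28631847 expected counts each, and Cd40-null replicates 1 and 2 held 23843843 and 19707746. Levels are given as CPM, counts scaled to the library's total by TMM factors and not divided by gene length. The sort markers were present: Itgax (CD11c) lay at 78.0 to 226 CPM in biotin-negative libraries and at 107 and 92.4 CPM in the null libraries. Itgam (CD11b) was at 10.1 to 64.9 CPM against 18.3 and 11.2 CPM, and Xcr1, the receptor absent from the sorted cells, at 2.03 to 4.46 CPM against 2.13 and 2.17 CPM. The DC genes Flt3 and Zbtb46 were at 121 CPM or more in all 8 libraries. All libraries carried Y-linked transcripts such as Ddx3y (110 to 173 CPM against 113 and 125 CPM).

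Few genes separated the groups beyond the spread between libraries. Of 14217 genes tested, 45 (0.317%) were called at an adjusted p of 0.05 by edgeR's quasi-likelihood test with Benjamini-Hochberg adjustment, 39 higher (0.274%) and 6 lower (0.0422%) in biotin-negative DCs. Of the 45, 33 differed by 2-fold or more, 32 of them higher. At an unadjusted p of 0.05 the count was 1311, 818 higher and 493 lower, where 711 are expected with no difference. The median log2 fold change over all tested genes was 0.06. These shares and this median are the background for each list count below. The plot of fold change against p shows Cd40, Tsc22d3 and Ushbp1 apart from the rest.

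**Figure D1:**
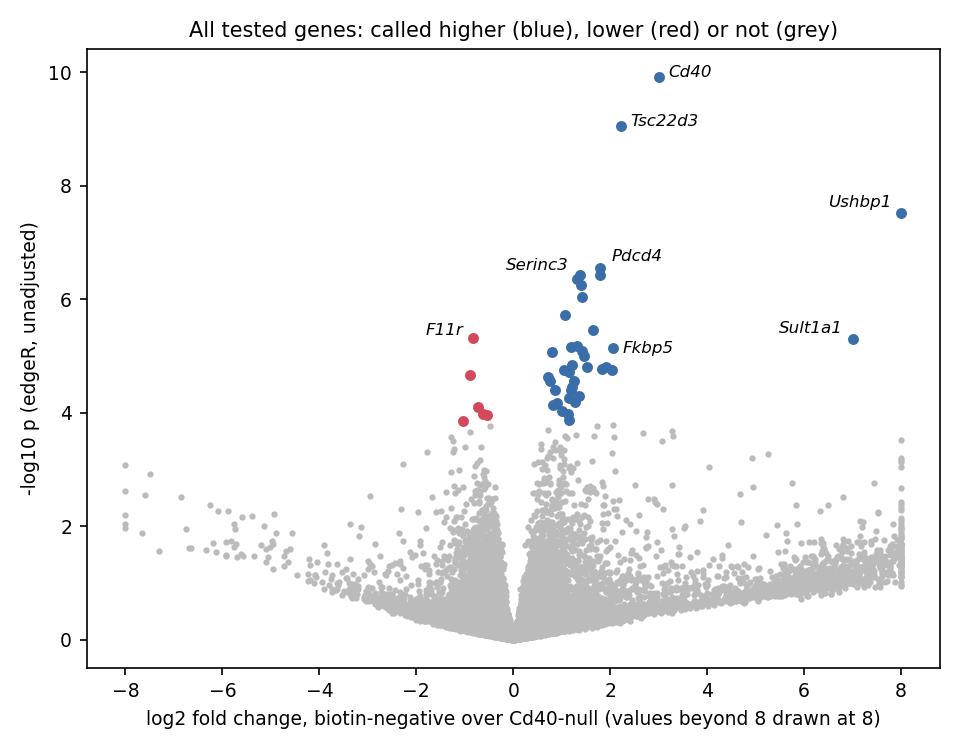
Each point is 1 of the 14217 tested genes. The horizontal axis is the fitted log2 fold change, biotin-negative over Cd40-null, and the vertical axis is minus log10 of the unadjusted p; the 39 genes called higher and the 6 called lower are coloured.

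Cd40 itself (chr2:165055627-165072948, GRCm38, plus strand, protein-coding) had the smallest p of all genes and was lower in both libraries labelled null. Its level was 386 to 598 CPM in biotin-negative libraries (median 524), against 74.2 CPM in null replicate 1 and 53.3 CPM in null replicate 2. No biotin-negative library came near either null library. The groups differed 8.01-fold, a log2 fold change of 3.00 (SE 0.22, edgeR adjusted p = 1.76e-06). Counts remained over the gene in both null libraries, 1843 and 1033 in all; gene-level counts do not show which exons they cover. With less Cd40 RNA, as with every gene here, fewer cells carrying a transcript and less of it per cell cannot be told apart in bulk libraries.

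Within 5 Mb of Cd40 on chromosome 2, 70 genes were tested, the region where DNA from the strain in which an allele was made can persist. Of these, 1 was called higher and 0 lower, against 0.274% and 0.0422% of all tested genes. Their median log2 fold change was 0.11, against 0.06 over all tested genes. The called gene was Serinc3, a membrane protein that limits retroviral infectivity, which starts 1.43 Mb before Cd40. Its level was 519 to 766 CPM (median 676) against 254 and 260 CPM, a 2.62-fold difference (edgeR adjusted p = 0.000879). The groups did not overlap. Whether linkage to the null allele bears on Serinc3 was not tested.

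Genes known to be induced by glucocorticoids included several of the leading calls. Of 33 tested members of that list, 4 were called higher and 0 lower, where 0.274% of all tested genes were called higher. The list was chosen with earlier results of these data known, so its counts describe the members and do not test them as a set. In 12 members all 6 biotin-negative libraries lay above both null libraries, as in 886 (6.23%) of all tested genes. The list's median log2 fold change was 0.67, against 0.06 over all genes. Tsc22d3 (GILZ, a leucine zipper protein that restrains NF-kB and AP-1) was at 394 to 587 CPM (median 507) in biotin-negative DCs and at 123 and 94.1 CPM in the null libraries. It rose 4.64-fold, a log2 fold change of 2.22 (SE 0.18, edgeR adjusted p = 6.2e-06). The stretch of Tsc22d3 printed above holds TGTTCT 185 bases before the most upstream RefSeq start, the only start examined. The 137 bases nearest that start lie in an exon and were left out. Among these 4 genes, Tsc22d3 was the one whose window matched the glucocorticoid motif.

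Fkbp5, a co-chaperone that tunes the glucocorticoid receptor's own hormone binding, was at 28.5 to 40.7 CPM (median 34.4) against 11.3 and 5.42 CPM. That is a 4.16-fold difference (edgeR adjusted p = 0.00635), and the null libraries differed from each other as well, by 1.05 on the log2 scale. Per1, a repressor of the circadian clock that also responds to glucocorticoids, was at 78.6 to 178 CPM (median 151) against 31.4 and 41.0 CPM. It rose 3.77-fold (edgeR adjusted p = 0.0102), with biotin-negative replicates 4 and 6 the lowest of their group at 97.8 and 78.6 CPM, yet still above both null libraries. Per1 was the sole call among 19 tested clock genes, whose median was 0.05. The 2 promoters with an E-box among the 26 of genes called higher, printed above, are those of Fkbp5 and Per1. That share is no higher than the 8.07% over promoters of tested genes.

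Il7r, the alpha chain of the receptors for IL-7 and TSLP, was at 355 to 584 CPM (median 492) in biotin-negative DCs and at 167 and 115 CPM in the null libraries. It rose 3.44-fold (log2 fold change 1.78, SE 0.22, edgeR adjusted p = 0.000879). T cells also make Il7r; the summed level of 31 other T cell markers was 412 and 166 CPM in null replicates 1 and 2 and 121 to 254 CPM in biotin-negative libraries. Without null replicate 2 the edgeR adjusted p was 0.0531 for Il7r, 0.229 for Fkbp5 and 0.116 for Per1. Without null replicate 1 it was 0.00689 for Il7r, 0.0145 for Fkbp5 and 0.209 for Per1. Tsc22d3 was called with either null library alone.

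**Figure D2:**
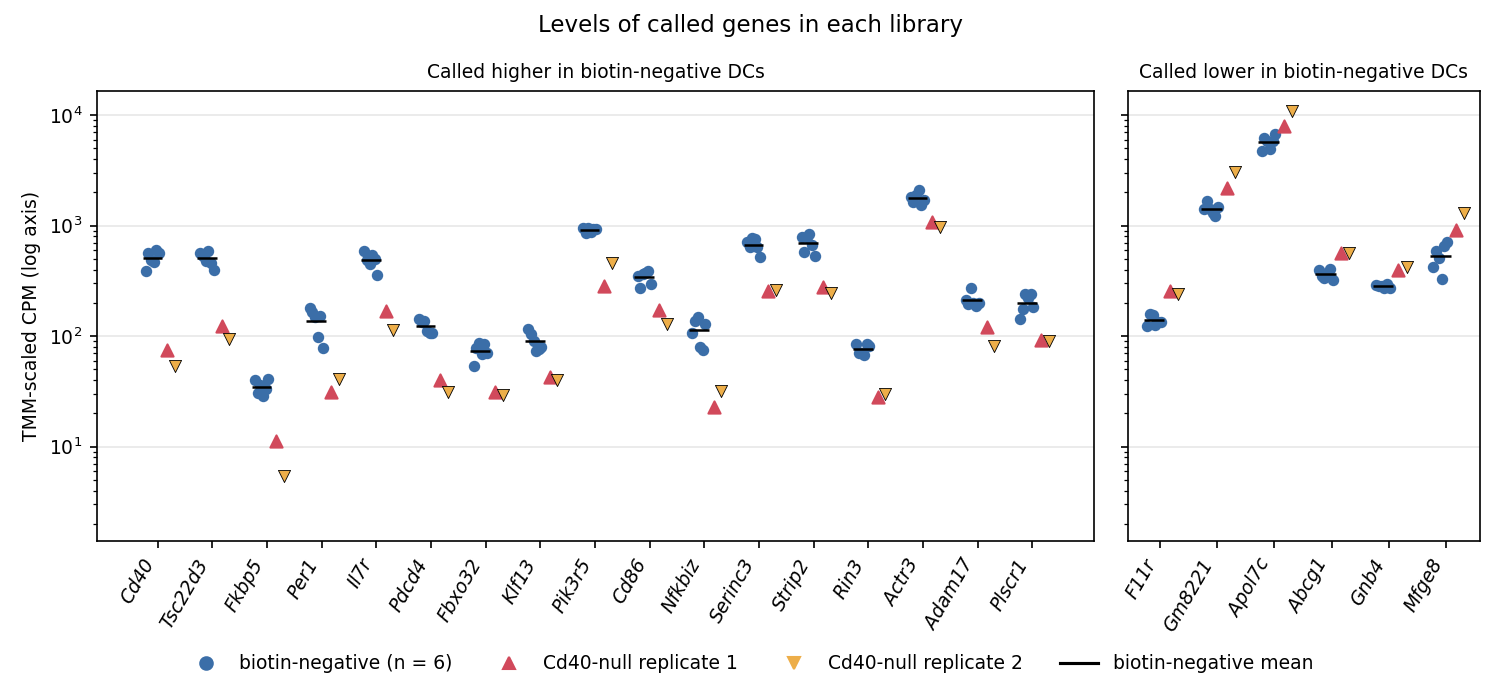
TMM-scaled CPM (log axis) of 17 genes called higher and the 6 called lower in biotin-negative DCs, by library: dots are the 6 biotin-negative libraries, triangles the 2 Cd40-null libraries, bars the biotin-negative mean. For every gene drawn, as for all 45 called genes, both null libraries lie outside the biotin-negative range. The genes were drawn because they were called on these values, so this separation adds no support of its own. Over all tested genes, all biotin-negative libraries lay above both null libraries in 6.23% and below both in 4.47%.

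FoxO-linked genes overlapped this set. Of 42 tested members, 4 were called higher and 0 lower: Tsc22d3 and Il7r, counted above, with Pdcd4 and Fbxo32. Over all tested genes 0.274% were called higher. The median of the list was 0.34, against 0.06 over all genes. This list too was chosen with earlier results of these data known. Pdcd4, an inhibitor of translation initiation, was at 107 to 141 CPM (median 122) against 39.8 and 31.3 CPM. It rose 3.45-fold (log2 fold change 1.79, SE 0.22, edgeR adjusted p = 0.000879), and its adjusted p was 0.0509 without null replicate 2. Fbxo32 (atrogin-1, a ubiquitin ligase subunit) was at 53.8 to 85.9 CPM against 31.1 and 29.6 CPM, 2.42-fold higher (edgeR adjusted p = 0.0257). With null replicate 1 left out its adjusted p was 0.242, and with null replicate 2 left out it was 0.369.

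Among 39 tested genes of the PI3K, Akt and mTOR pathway, 1 was called higher and 0 lower, and 8 lay above both null libraries in all biotin-negative libraries. Over all tested genes 0.274% were called higher, 6.23% lay above in this way and 635 (4.47%) lay below. The called gene was Pik3r5, the p101 regulatory subunit of PI3K gamma. It was at 853 to 957 CPM (median 939) in biotin-negative libraries, against 283 CPM in null replicate 1 and 458 CPM in null replicate 2. The difference was 2.48-fold (edgeR adjusted p = 0.000879) and was called with either null library alone, as 1.70 against replicate 1 and 1.01 against replicate 2 on the log2 scale. The next members by p, Pik3r3 (log2 fold change 0.80, edgeR adjusted p = 0.257) and Pik3r1 (0.94, 0.268), regulatory subunits of the class I kinases, were not called.

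The CD40 receptor and TRAF list had Cd40 as its sole call among 22 tested members, and the median of the list was -0.12. Over all tested genes 0.274% were called higher and the median was 0.06. Traf1, a TRAF induced by CD40 and NF-kB, was at 798 to 896 CPM in biotin-negative libraries and at 945 and 1056 CPM in the null libraries (log2 fold change -0.23, edgeR adjusted p = 0.488). Traf3, the adaptor that holds back non-canonical NF-kB, was at 66.1 to 108 CPM against 57.1 and 65.7 CPM (0.61, 0.444).

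Of 39 tested NF-kB subunits and targets, 1 was called higher and 0 lower, with a median of 0.28. Over all tested genes 0.274% were called higher and the median was 0.06. In 10 members all biotin-negative libraries lay above both null libraries, and in 2 below, against 6.23% and 4.47% of all tested genes. At an unadjusted edgeR p of 0.05, 8 were higher and 2 lower, against 818 and 493 of all 14217 tested genes. Nfkbiz, an inducible nuclear I-kappa-B protein that steers NF-kB to secondary response genes, was at 74.6 to 150 CPM (median 117) against 22.8 and 32.1 CPM. It rose 4.11-fold (log2 fold change 2.04, SE 0.34, edgeR adjusted p = 0.0102), and its adjusted p was 0.225 when null replicate 1 was left out and 0.113 when null replicate 2 was. Relb, the non-canonical subunit, was at 910 to 1154 CPM against 1182 and 1419 CPM, without overlap but not called (log2 fold change -0.33, edgeR adjusted p = 0.35).

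Of the genes of mature migratory DCs, 44 were tested, 1 was called higher and 1 lower, and the median was -0.03. Over all tested genes 0.274% were called higher and 0.0422% lower, and the median was 0.06. The listed gene called higher was Cd86, the B7 ligand that costimulates T cells through CD28. It was at 274 to 386 CPM (median 359) against 172 and 128 CPM, a 2.27-fold difference (log2 fold change 1.18, SE 0.18, edgeR adjusted p = 0.00635). Without null replicate 2 its adjusted p was 0.258, and without null replicate 1 it was 0.0314. Among 20 tested B7 family members and costimulatory ligands Cd86 was the sole call, and the median was 0.53. Tnfsf9 (4-1BB ligand) was at 28.4 to 73.4 CPM against 2.66 and 6.76 CPM, with no overlap, and just missed the threshold (log2 fold change 3.27, edgeR adjusted p = 0.0599). Cd80 was at 17.2 to 25.3 CPM against 10.7 and 7.28 CPM (1.21, 0.485), and Bcl2l14, a BCL2 relative, at 19.6 to 51.0 CPM against 10.9 and 11.2 CPM (1.72, 0.0507).

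**Figure D3:**
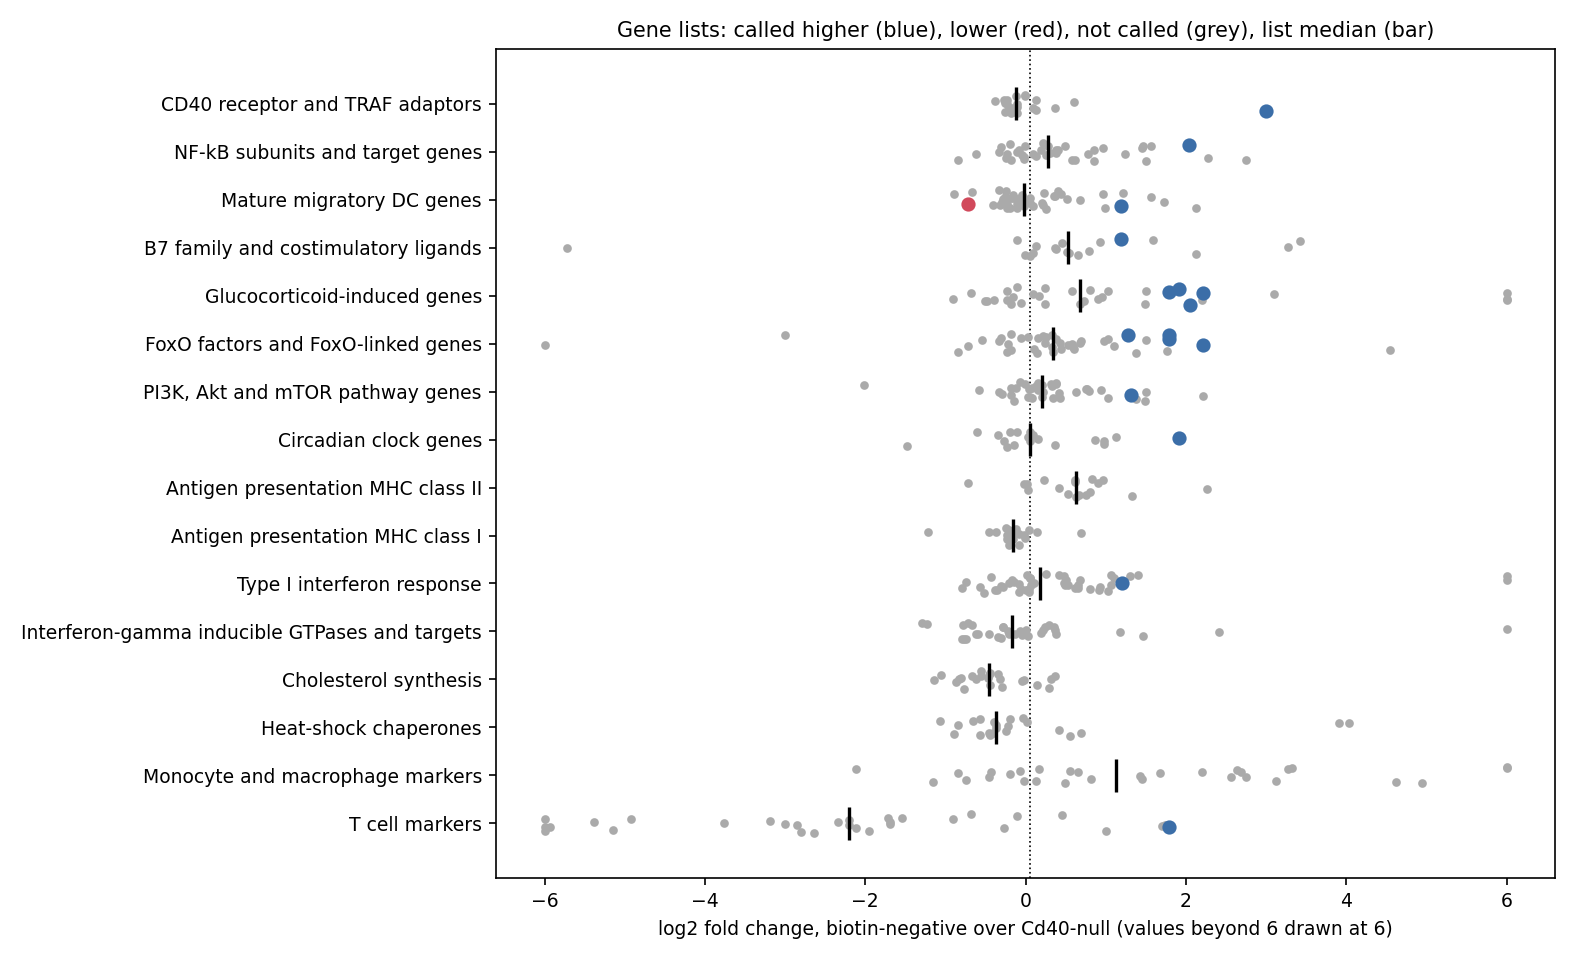
Fitted log2 fold change, biotin-negative over Cd40-null, of every tested member of 16 gene lists; the bar is the list's median and the dotted line the median of all tested genes, 0.06. The glucocorticoid and FoxO lists, which have members in common, each hold 4 called genes, the other lists at most 2. The lists were chosen with earlier results of these data known.

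Ushbp1, a protein that binds the Usher syndrome scaffold harmonin, had no count in either null library and was at 18.7 to 74.3 CPM (median 52.9) in biotin-negative DCs. With 3 counts in the null libraries together as the floor (0.0678 CPM), its mean was at least 703-fold higher (edgeR adjusted p = 0.000141). Within the biotin-negative group replicates 5 and 6 were lowest, at 18.7 and 21.0 CPM. Sult1a1, a phenol sulfotransferase, had 0 and 3 counts in the null libraries and 4.75 to 20.03 CPM in the others (edgeR adjusted p = 0.00553). The call of Sult1a1 was lost without null replicate 1 (adjusted p 0.0855), while that of Ushbp1 held with either null library. Other genes had no count in the null libraries without being called, and their biotin-negative libraries ranged widely: Il1r2 (0.0357 to 29.3 CPM), Cd36 (0 to 13.9 CPM), Cd209a (0 to 68.6 CPM), Klhl38 (0 to 17.5 CPM) and Tmprss11d (0 to 28.3 CPM).

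Several other genes called higher were on none of the lists, Rin3, Strip2 and Gpcpd1 among them. Rin3, an exchange factor for endosomal Rab GTPases, was at 68.1 to 85.7 CPM against 28 and 29.9 CPM, a 2.65-fold difference (edgeR adjusted p = 0.00101) called with either null library alone. Strip2, a component of striatin phosphatase complexes that shape the cytoskeleton, was at 535 to 834 CPM against 280 and 246 CPM, 2.66-fold higher (edgeR adjusted p = 0.00142). Gpcpd1, a glycerophosphocholine phosphodiesterase, was at 268 to 357 CPM against 153 and 139 CPM, 2.1-fold higher (edgeR adjusted p = 0.00272). Leaving out null replicate 2 ended the calls of Strip2 (adjusted p 0.0833) and Gpcpd1 (0.113), and leaving out null replicate 1 did not.

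Actr3, a subunit of the actin-branching Arp2/3 complex, was the single call among 43 tested actin and motility genes. It was at 1527 to 2096 CPM (median 1759) against 1075 and 966 CPM, 1.74-fold higher (edgeR adjusted p = 0.00661). Cytip, a cytohesin-binding protein that loosens integrin adhesion in mature DCs, was at 584 to 716 CPM against 440 and 323 CPM, 1.70-fold higher (edgeR adjusted p = 0.0133). Both sheddases among the calls were higher in biotin-negative DCs: Adam9 at 130 to 231 CPM against 53.5 and 72.2 CPM, and Adam17, which releases TNF from the membrane, at 187 to 273 CPM against 121 and 81.3 CPM. Their edgeR adjusted p values were 0.00763 and 0.0102. Without null replicate 1 the adjusted p was 0.0809 for Actr3, 0.0281 for Cytip, 0.2 for Adam9 and 0.0264 for Adam17. Without null replicate 2 it was 0.258 for Actr3, 0.435 for Cytip, 0.0731 for Adam9 and 0.369 for Adam17.

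Plscr1, a phospholipid scramblase, and Synj1, a phosphoinositide phosphatase of clathrin uncoating, were 2.22-fold and 1.87-fold higher (edgeR adjusted p = 0.0104 and 0.0257). Ifitm2, an interferon-induced membrane protein of a multigene family, was at 114 to 185 CPM against 65.0 and 67.5 CPM, 2.31-fold higher (edgeR adjusted p = 0.0102). It was the sole call among 46 tested genes of the type I interferon response, whose median was 0.18; reads shared within the Ifitm family make its own value uncertain. Nup88, a nuclear pore protein, Klf13, a zinc-finger transcription factor, Gramd3, a member of a lipid-transfer family, and Fam53b, a regulator of beta-catenin localisation, were also called higher, by 1.63-, 2.18-, 1.76- and 2.40-fold. Each of these 7 calls was lost whichever null library was left out, except that Fam53b was called against null replicate 1 alone (adjusted p 0.0308).

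A separate set of calls consisted of chemosensory receptors, noncoding RNAs and unnamed loci. It held Olfr613, Olfr856-ps1 and Vmn1r58 (olfactory and vomeronasal receptor genes), Kcnq1ot1 (the imprinted antisense RNA of the Kcnq1 locus), Grk4 (a receptor kinase), the zinc-finger gene Zfp488 and loci such as A130077B15Rik and Gm17821. Kcnq1ot1 was at 562 to 1048 CPM (median 952) against 428 and 367 CPM, 2.21-fold higher (edgeR adjusted p = 0.0224). Zfp488 was at 272 to 522 CPM (median 405) against 127 and 123 CPM, 3.14-fold higher (edgeR adjusted p = 0.00455). Antisense and overlapping reads cannot be told apart in a library kit without strand, and receptor genes share sequence with near-identical copies.

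In 12 of the 45 called genes (26.7%), biotin-negative replicates 2 and 3 were the 2 lowest of their group, against 1408 of all tested genes (9.9%), a count made after the values were seen. The summed level of 1457 olfactory and vomeronasal receptor genes was 276 to 538 CPM in biotin-negative libraries and 149 and 137 CPM in the null libraries, but the 3 called receptor genes made up 73.0% to 80.1% of that sum in these 8 libraries. Without those 3 the sum was 68.0 and 84.6 CPM in biotin-negative replicates 2 and 3, 100.2 to 143 CPM in the other biotin-negative libraries and 40.8 and 27.2 CPM in the null libraries. Replicates 2 and 3 also detected the fewest genes of their group, 14225 and 14493. Of the 1457 receptor genes, 59 passed the filter and were tested, and 3 were called higher. Of the 59, 8 lay above both null libraries in all biotin-negative libraries, as did 6.23% of all tested genes. The median log2 fold change of the 59 was 4.87, against 0.06 over all tested genes. A gene can pass the filter on counts in biotin-negative libraries alone, so this median does not measure the receptor family. With the sum that leaves out the 3 called genes as a covariate, chosen after seeing the data, 3 of the 45 genes were called, Cd40, Tsc22d3 and Ushbp1, and Grk4 alone turned to a log2 fold change below 0 (-0.050).

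Genes detected with at least 1 count were more numerous in every biotin-negative library, 14225 to 15742 (mean 14976 ± 621, SD, n = 6), than in null replicate 1, 13596, and null replicate 2, 13113. The exact two-sided permutation p was 0.0714, the smallest that 28 arrangements of 6 against 2 give, and 0.464 when adjusted over 65 measures. After thinning all libraries to 14518099 counts the ranges were 13931 to 15547 against 13430 and 13005. The 6 biotin-positive libraries detected 13090 to 13455 genes, and 13031 to 13385 after thinning, fewer than any biotin-negative library. Their summed level of olfactory and vomeronasal receptor genes was 166 to 213 CPM, also below every biotin-negative library. A fit that also included each library's detected-gene number called 6 genes, and 5 of the 45 held: Cd40, Tsc22d3, Ushbp1, Serinc3 and Sult1a1. Since no biotin-negative library overlapped a null library in this number, the covariate and the group are separated only by the spread within groups.

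**Figure D4:**
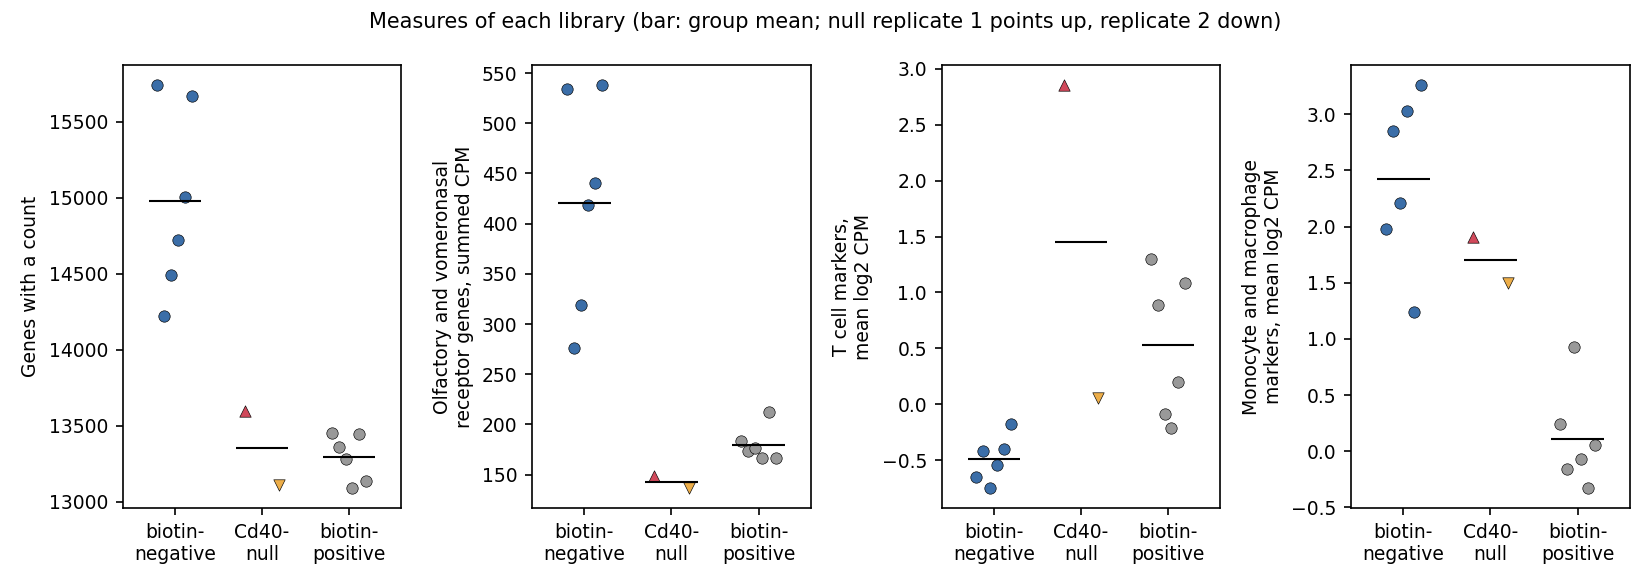
Measures of each library: genes with a count, summed CPM of olfactory and vomeronasal receptor genes, and mean log2 CPM of T cell and of monocyte and macrophage markers, with biotin-positive libraries of the same study drawn for reference. Biotin-negative libraries lie above both null libraries and all biotin-positive libraries in genes and receptor level. Null replicate 1 lies apart in T cell markers.

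All 6 genes called lower in biotin-negative DCs lay below both null libraries, as did 635 (4.47%) of all tested genes. F11r (JAM-A, a junctional adhesion molecule) was at 124 to 159 CPM (median 134) against 256 and 238 CPM, 1.78-fold lower (log2 fold change -0.83, SE 0.13, edgeR adjusted p = 0.00553). Mfge8, a secreted bridge between phosphatidylserine on dying cells and integrins, was at 326 to 704 CPM (median 546) against 909 and 1288 CPM, 2.06-fold lower (edgeR adjusted p = 0.0444). It was the only lower gene past 2-fold, and it was also the least stable of the 6, called in 11 of 26 alternative analyses.

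Apol7c, an apolipoprotein L gene of mature DCs, was at 4756 to 6720 CPM (median 5819) against 7949 and 10882 CPM. It was 1.65-fold lower in biotin-negative DCs (edgeR adjusted p = 0.0287). Gm8221, a neighbouring Apol7 pseudogene on chromosome 15, was at 1212 to 1669 CPM against 2206 and 3069 CPM, 1.86-fold lower (edgeR adjusted p = 0.0112). Reads shared between these 2 near-identical loci cannot be assigned with certainty, so that they may be 1 signal. For both, null replicate 2 was further from the biotin-negative range than null replicate 1, and without replicate 2 their adjusted p values were 0.634 and 0.435.

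Abcg1, a sterol exporter induced by LXR, was at 320 to 404 CPM against 560 and 567 CPM, 1.55-fold lower (edgeR adjusted p = 0.0357), and was the only call among 21 tested genes of LXR and lipid efflux. Gnb4, a G protein beta subunit, was at 272 to 295 CPM against 395 and 425 CPM, 1.45-fold lower (edgeR adjusted p = 0.0357). Abcg1, Gnb4, F11r and Mfge8 were not called when either null library was left out; their adjusted p values without replicate 1 were 0.27, 0.209, 0.138 and 0.0875. Without replicate 2 they were 0.369, 0.466, 0.0767 and 0.63.

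Several lists held no called gene and are given by their counts. Of 18 tested MHC class II presentation genes none was called by edgeR, 7 were higher at an unadjusted p of 0.05 and 0 lower, and the median log2 fold change was 0.62. At that p 818 of all 14217 tested genes were higher and 493 lower, and the median over all genes was 0.06. Cd74, the invariant chain, was at 1648 to 3230 CPM against 1407 and 1744 CPM (log2 fold change 0.80, edgeR adjusted p = 0.431). H2-Ab1 was at 570 to 1597 CPM against 385 and 611 CPM (1.32, 0.444). In both genes the lowest biotin-negative library fell inside the null range. MHC class I genes, 23 tested, had a median of -0.15. A log2 fold change above 0 was found in 3, against 54.8% of all tested genes. At an unadjusted edgeR p of 0.05, 2 were lower and 1 higher. Nlrc5, their transactivator, leaned higher, at 330 to 550 CPM against 255 and 258 CPM (0.69, 0.107).

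Of 34 tested interferon-gamma inducible GTPases and targets, 0 were called by edgeR, 6 were lower and 0 higher at an unadjusted p of 0.05, and 5 lay below both null libraries in all biotin-negative libraries. Over all 14217 tested genes, 493 were lower and 818 higher at that p, and 4.47% lay below both null libraries. Tgtp1, a T cell-specific-type GTPase of the innate response, was at 53.0 to 118 CPM against 158 and 220 CPM (log2 fold change -1.29, edgeR adjusted p = 0.0669). The groups did not overlap in this gene, which did not pass the test.

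Cholesterol synthesis genes, 23 tested, had a median of -0.46 with 6 lower and 1 higher at an unadjusted p of 0.05 and 0 called by edgeR. Over all 14217 tested genes, 493 were lower and 818 higher at that p. Fdft1 (squalene synthase) was at 42.3 to 95.3 CPM against 124 and 121 CPM (log2 fold change -0.87, edgeR adjusted p = 0.231). Heat-shock chaperones, 22 tested and 0 called, had a median of -0.37, with 6 members above 0. Hspa1a was at 71.6 to 569 CPM against 9.21 and 19.2 CPM (4.04, 0.123), and Hsp90ab1 at 858 to 1015 CPM against 1305 and 1123 CPM (-0.37, 0.19). Cell cycle genes (34 tested), ribosomal proteins (46), the respiratory chain (38) and proteasome subunits (31) had no call and medians of -0.34, -0.04, -0.09 and 0.01.

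The null libraries were next taken one at a time. With null replicate 2 alone 21 genes were called, with null replicate 1 alone 12, and 6 of the 45 were called both ways: Cd40, Tsc22d3, Ushbp1, Rin3, Serinc3 and Pik3r5. In these fits the lone null library is assumed to vary like the other groups. The log2 fold change of Cd40 was 2.78 against replicate 1 and 3.26 against replicate 2, and that of Tsc22d3 was 2.03 and 2.42. Of the 45 genes, 16 were called against replicate 2 alone and 8 against replicate 1 alone, and all 45 had the same direction in both fits.

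**Figure D5:**
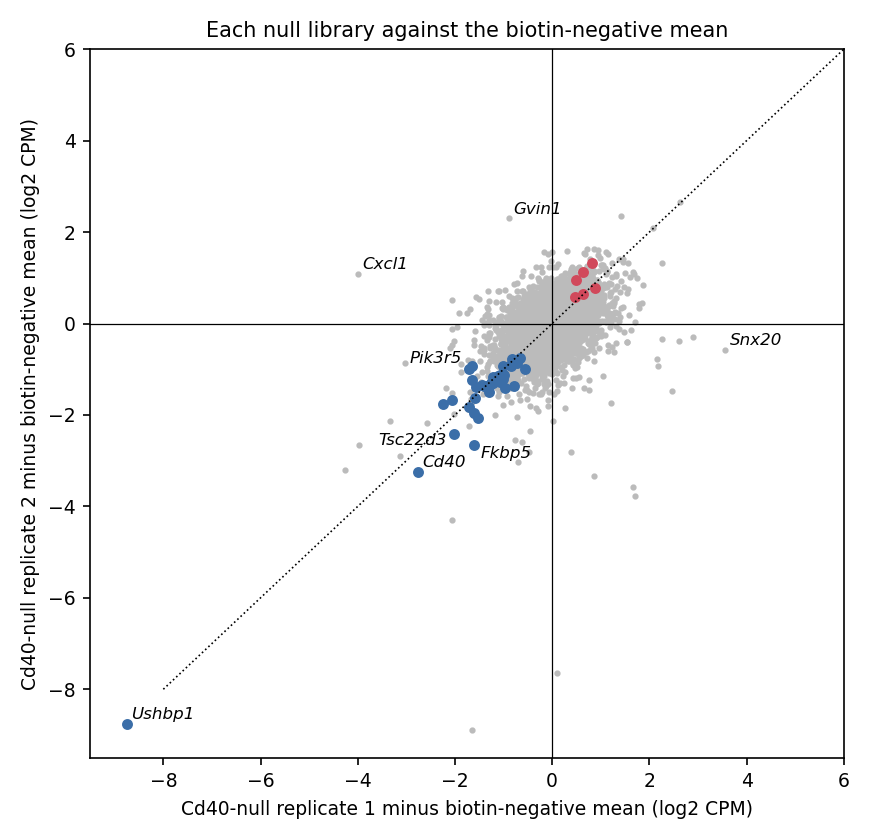
Difference of each Cd40-null library from the biotin-negative mean (log2 CPM), replicate 1 on the horizontal and replicate 2 on the vertical axis, for genes with a mean of at least 20 CPM over the 8 libraries. Genes called higher in biotin-negative DCs are blue and those called lower red; points far from the dotted diagonal, such as Cxcl1 and Snx20, differ between the null libraries.

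The null libraries differed from each other by 2-fold or more in 319 of 5963 genes with a mean of at least 20 CPM (5.35%). Pairs of biotin-negative libraries differed in 354 to 680 genes (median 459, 15 pairs), and a biotin-negative library differed from a null library in 460 to 616 (median 572, 12 pairs). The pair ranges overlap, with the higher median in pairs across the groups.

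At a mean of at least 20 CPM in the null libraries, replicate 1 exceeded replicate 2 most in Cxcl13, a B cell chemokine (107 against 2.27 CPM), Snx20, a sorting nexin of leukocytes (75.4 against 4.23 CPM), Dusp2, a phosphatase of activated lymphocytes (80.6 against 5.16 CPM), and Phgdh, the first enzyme of serine synthesis (55.8 against 4.03 CPM). Replicate 2 exceeded replicate 1 most in Cxcl1, a neutrophil chemokine (74.5 against 2.09 CPM), Gvin1, a large interferon-inducible GTPase (102 against 11.1 CPM), Pcdhgc3 (41.2 against 6.48 CPM) and Cnst (36.8 against 6.08 CPM). Biotin-negative libraries were at 21.8 to 65.9 CPM for Cxcl1, between the null values. For Cxcl13 they were at 10.1 to 161 CPM, with replicates 3 and 6 above both null libraries. They also ranged widely for Dusp2 (6.37 to 194 CPM), Snx20 (1.92 to 57.3 CPM) and Gvin1 (7.82 to 79.5 CPM). Their ranges were 3.54 to 8.37 CPM for Phgdh, 0.0573 to 16.7 CPM for Pcdhgc3 and 12.1 to 41.7 CPM for Cnst.

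T cell transcripts separated null replicate 1 from all the others. Leaving out Il7r, 12 of 31 T cell markers reached 10 CPM in replicate 1, 2 in replicate 2 and 2 to 4 in the biotin-negative libraries. Cd6 was at 32.7 CPM in replicate 1, 0 in replicate 2 and at most 0.511 CPM in biotin-negative libraries, and Ctla4 at 27.5 CPM, 0 and at most 0.291 CPM. Cd3e, the defining chain of the T cell receptor complex, was low throughout, at 3.62 and 1.39 CPM in the null libraries, and Cd40lg had no count in any of the 8. Of 31 tested T cell markers, Il7r was called higher, 0 were called lower, 9 were lower at an unadjusted p of 0.05, and the median was -2.20. At that p 493 of all 14217 tested genes were lower. Adding each library's T cell marker level to the fit, chosen after seeing the data, left 10 calls and 8 of the 45: Cd40, Tsc22d3, Ushbp1, Pdcd4, Il7r, Rin3, Cytip and Fkbp5.

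Of the tested genes, 20 had a count in a null library and none in any biotin-negative library; the highest null level was 9.29 CPM, in Ccr8, and 0 of the 20 were called by edgeR. Ccr8, a chemokine receptor of regulatory and memory T cells, had 231 counts in replicate 1 and 0 in replicate 2; Kif4, a mitotic kinesin, had 94 and 0, Cpt1b 107 and 0, and Itpka 61 and 0. Slc40a1, the iron exporter ferroportin, had 0 and 37, and Prkar1b had 93 and 24.

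Most monocyte and macrophage markers leaned the other way. Of 30 tested, 21 had a log2 fold change above 0, against 54.8% of all tested genes, and the median was 1.12. By edgeR 0 were called, and 7 were higher and 0 lower at an unadjusted p of 0.05. Over all 14217 tested genes, 818 were higher and 493 lower at that p. In 5 of the markers all biotin-negative libraries lay above both null libraries, as in 6.23% of all tested genes. The summed level of the list was 385 to 1798 CPM against 714 and 438 CPM, an overlapping range. Of 31 markers, 9 to 17 reached 10 CPM against 8 and 9. Lyz2 was at 39.1 to 836 CPM against 310 and 120 CPM, and C1qa, a complement component of macrophages, at 8.11 to 93.1 CPM against 6.96 and 1.39 CPM (log2 fold change 3.28, edgeR adjusted p = 0.182). Mertk, Mrc1 and Chi3l3 had no count in the null libraries. With the monocyte marker level as a covariate 37 genes were called, 36 of them among the 45.

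Langerhans cell markers, 10 tested, held 1 gene called lower, Mfge8, and none called higher. Their summed level, in which Mfge8 is the largest part, was 615 to 1020 CPM against 1187 and 1529 CPM. Cd207 (langerin) was at 8.42 to 46.5 CPM against 34.7 and 25.7 CPM, an overlapping range. Markers of type 1 conventional DCs summed to 410 to 559 CPM against 572 and 618 CPM, a lower sum that lay in Irf8, at 106 to 242 CPM against 331 and 336 CPM (log2 fold change -0.80, edgeR adjusted p = 0.254). Of the 13 tested members, 8 had a log2 fold change above 0, and the median was 0.13. Of 18 granulocyte and mast cell markers, 14 had no count in either null library, S100a8 and S100a9 among them, and 2 exceeded 10 CPM in one. Of 21 NK cell markers, 10 had no count in the null libraries, Ncr1 and Prf1 among them, and 4 exceeded 10 CPM in one. The NK sum was 1920 to 3664 CPM against 2818 and 2839 CPM. Of 25 stromal and endothelial markers, 13 had no count in the null libraries, Cdh5 among them, and 3 exceeded 10 CPM in one. That list's sum was 27.1 to 196 CPM against 132 and 36.5 CPM.

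Levels in the 6 biotin-positive libraries, sorted for the presence of biotin from mice of the same tagged genotype, are set beside these. Both comparisons share the 2 null libraries. Biotin-positive against Cd40-null, 323 genes were called (2.27%). Of the 39 genes called higher in biotin-negative DCs, 23 were called higher there too and 16 were not called; none of the 6 lower genes was called there by edgeR. Cd40 was at 852 to 1309 CPM in biotin-positive libraries, Tsc22d3 at 586 to 782 CPM, Pik3r5 at 942 to 1299 CPM, Ushbp1 at 24.4 to 67.6 CPM and Cd86 at 280 to 417 CPM, all above both null libraries.

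For other genes called in biotin-negative DCs, biotin-positive and null libraries did not differ by a called amount. Nfkbiz was at 27.95 to 55.8 CPM in biotin-positive libraries (log2 fold change to null 0.47, edgeR adjusted p = 0.551), Zfp488 at 131 to 178 CPM (0.28, 0.644), and Ifitm2 at 68.0 to 96.7 CPM (0.31, 0.51). F11r was at 213 to 258 CPM (-0.08, 0.88), beside 256 and 238 CPM in the null libraries. Gm8221 was at 3397 to 5239 CPM, Apol7c at 10928 to 15672 CPM and Mfge8 at 1152 to 1512 CPM, where the fitted log2 fold changes to null were above 0 (0.60, 0.48 and 0.28) and not called (edgeR adjusted p = 0.0724, 0.117 and 0.648). For Gm8221 and Apol7c every biotin-positive library lay above both null libraries. The difference between these comparisons was not tested here.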

How the data were processed

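RNA of 14 libraries from sorted mouse lymph node DCs was analysed, 6 biotin-negative, 6 biotin-positive and 2 Cd40-null, grouped by their titles. The authors deposited expected counts per gene symbol (RSEM, per the labels), as whole numbers, and a second table of normalized signal, which the values show to be the same counts divided by 1 size factor per library for 10321 genes. The submitters' processing notes name Bowtie2 2.1.0, RSEM 1.2.8, DESeq2 1.16.0 and mm10, and the gene annotation is not given in the sources used here. The expected-count table holds 23420 genes, of which 27 have symbols turned into dates and 3078 are at 0 in every library.

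Counts were tested with edgeR 4.0.16 (R 4.3.3): TMM factors, filterByExpr by group with a minimum count of 10, and a robust quasi-likelihood fit of all 14 libraries with group as the factor. All 14 libraries share 1 estimate of the spread because the null group has 2. Genes with a Benjamini-Hochberg adjusted p under 0.05 are called. Single measures per library were compared by exact two-sided permutation tests over 8 libraries. Log2 CPM of single libraries used a prior count of 2. Alternatives were other scalings, filters and tools (DESeq2 1.42.0, limma 3.58.1), a replicate block, covariates, thinned counts and leaving out each library. Positions are GENCODE vM21 (GRCm38), which held 13281 tested symbols.

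Members and gene lists were chosen with earlier results of these data known. Named genes are, of called genes at a mean of at least 5 CPM, the 14 each way with the smallest p, 5 more each way by size, Cd40, up to 4 members of each list described by smallest p, up to 6 genes without counts in a group, and the 4 each way that differ most between the null libraries; unnamed loci were passed over, and called genes outside this rule were named after their values were seen. Depth was 14518099 to 33260704 counts per library, without molecular identifiers, so floors of 3 counts cover counting error only.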

Additional observations from a re-analysis of the deposited data

Results flagged for a closer look

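Among the 45 called genes and 17 library measures examined in the 6 biotin-negative libraries, 2 values stood far from the others of their group by Dixon's test, where chance flags about 1 in 20. Adam17 was at 273 CPM in biotin-negative replicate 3, with the other 5 libraries at 187 to 214 CPM. The mean log2 CPM of NK cell markers was 3.26 in 1 biotin-negative library, the highest of the 6, where the group mean was 1.63 and the null libraries had 1.48 and 1.09. The list held 4 markers at 10 CPM or more in each of the 6 libraries and summed to 1920 to 3664 CPM, while Ncr1, a defining NK receptor, did not exceed 0.328 CPM.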

How the results depend on the processing

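All 45 called genes kept their direction in each of 26 alternatives but 2. With the receptor gene level as a covariate, Vmn1r58 (-0.17), Gm17644 (-0.11), Gm17821 (-0.24), A130077B15Rik (-0.061), Olfr613 (-0.049), Grk4 (-0.28) and Kcnq1ot1 (-0.25) turned to a log2 fold change below 0; 3 called receptor genes are most of that sum, so this fit sets them partly against themselves. With those 3 left out of the sum, Grk4 (-0.050) alone turned. Cd40 and Tsc22d3 were called in all 26 and Ushbp1 in 25 (not by limma voom). The count of 45 called genes became 68 with a stricter filter, 370 with DESeq2 (313 higher, 57 lower, all 45 kept), 83 with limma on the normalized table and 29 with the 2 groups alone. Covariates gave 6 (genes detected), 10 (T cell markers), 3 (receptor genes) and 4 (receptor genes without those called) calls; limma voom gave 53 (39 higher, 14 lower). Called genes of 2-fold or more, 33, became 238 with DESeq2, 58 on the normalized table, and 6, 10, 3 and 4 with those covariates. The 15 called list members became 50 with DESeq2 and 2, 5, 2 and 2 with those covariates. Leaving out 1 library gave 12 to 48 called genes, 10 to 37 of 2-fold or more and 4 to 17 list members; all lowest values came without null replicate 2 (12, 10, 4), followed by without null replicate 1 (21, 20, 8). A replicate block gave 19 called genes and 17 of 2-fold or more, but libraries share only a number: same-numbered deviations correlated at -0.02 and 0.02 for replicates 1 and 2 of these groups. The median over all genes moved by 0.23 without a filter, by 0.23 with DESeq2 and by 0.16 and 0.10 without null replicates 1 and 2, where more low genes were tested. RLE, upper-quartile and total-count scaling, thinning and leaving out Rn45s gave 44 to 46 calls. The cause of these changes was not tested. With 2 null libraries, permutation tests could not pass 0.05.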
